A study of Homo sapiens with 30 samples.

Results

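The genes described here are the inhibitory SMADs and the other feedback regulators of BMP and TGF-beta signalling: SMAD6, SMAD7, SMURF1, SMURF2, BAMBI, SKI, SKIL, TOB1 and PMEPA1. They were chosen by name, and 15 of the 41000 non-control probes of the array measured these 9 genes. For 8 of the genes the probes carried the gene's present name, and the PMEPA1 probes, listed under the older name TMEPAI, were reached through their accessions. Where a gene had more than 1 probe, the one with the brightest median vehicle signal was taken as its main probe, and the other probes are given where they bear on a result.

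The data came from 5 human breast cancer cell lines, HCC1954, MDA-MB-231, MDA-MB-361, T-47D and ZR-75-30, treated in culture with recombinant human BMP7 or with vehicle for 30 min, 1, 3, 6, 12 or 24 h. Per the published methods, MDA-MB-231 and T-47D were grown at serum concentrations other than the recommended ones, and the other lines under recommended conditions. In each array RNA of BMP7-treated cells was labelled with Cy5 and RNA of vehicle-treated cells of the same line and time point with Cy3. Cells of 3 cultures were pooled for each RNA, and there was 1 array for each line and time point, 30 in all, so no line and time point had a replicate. The late difference and the exact tests below use the 5 lines as units. The other fits use the arrays, with cell line or time point as a block, so that time points of a line stand as repeats. Dyes were not swapped, so the tests over time use differences between time points, in which a constant dye difference of a probe cancels. Single log2 ratios, their signs and the counts of 2-fold changes can still hold such a difference.

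BMP7 binds pairs of type I and type II serine/threonine kinase receptors, which phosphorylate SMAD1, SMAD5 and SMAD9. These enter the nucleus with SMAD4 and switch on target genes, among which the ID genes, inhibitors of basic helix-loop-helix transcription factors, are the classical early readout. The pathway also limits itself. SMAD6 and SMAD7, the inhibitory SMADs, block the receptors and the transducing SMADs, SMURF1 and SMURF2 are ubiquitin ligases that mark receptors and SMADs for degradation, BAMBI is a receptor-like membrane protein with no kinase domain, SKI and SKIL are nuclear corepressors that bind SMAD complexes, TOB1 is an antiproliferative protein that binds receptor-regulated SMADs, and PMEPA1 is a membrane protein that holds back the SMADs of the TGF-beta branch. Of the ID genes, ID1 and ID3 serve here as the measure of the pathway's activity, and their mean log2 BMP7/vehicle on an array is called the ID index.

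The promoters of SMAD6, SMAD7 and BAMBI are shown because the time courses of both SMADs are compared below and because the windows of SMAD6 and BAMBI held listed SMAD elements. Each run is the 250 bases before a transcription start in RefSeq (GRCh38.p14), on the gene's own strand from 5′ to 3′, and capitals mark a motif found by the search. SMAD7 had 3 such windows, of which the first listed is shown, and none of the 3 held a motif of the search.
SMAD6, chr15:66701986-66702235, plus strand: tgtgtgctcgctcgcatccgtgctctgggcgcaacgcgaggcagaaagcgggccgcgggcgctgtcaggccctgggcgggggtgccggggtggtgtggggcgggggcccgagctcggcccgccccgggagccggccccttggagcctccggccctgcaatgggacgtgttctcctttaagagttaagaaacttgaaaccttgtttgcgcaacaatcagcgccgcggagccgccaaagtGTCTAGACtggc
SMAD7, chr18:48950966-48951215, minus strand: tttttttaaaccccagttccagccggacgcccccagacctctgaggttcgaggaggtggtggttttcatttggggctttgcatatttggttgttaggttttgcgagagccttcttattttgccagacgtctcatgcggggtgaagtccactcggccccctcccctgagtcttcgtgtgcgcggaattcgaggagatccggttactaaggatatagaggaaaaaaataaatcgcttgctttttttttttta
BAMBI, chr10:28677271-28677520, plus strand: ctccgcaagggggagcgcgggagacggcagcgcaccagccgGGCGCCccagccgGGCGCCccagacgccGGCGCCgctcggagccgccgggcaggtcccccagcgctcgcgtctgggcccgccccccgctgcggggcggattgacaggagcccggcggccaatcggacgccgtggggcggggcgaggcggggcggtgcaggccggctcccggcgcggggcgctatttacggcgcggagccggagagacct
RefSeq windows of 250 bases before to 50 after a start were held for 8 of the 9 genes (14 windows) and for the 4 ID genes, and both strands were searched. The palindrome GTCTAGAC, which binds SMAD3 and SMAD4, was in 0.202% of all 35116 windows and among the members in that of SMAD6, 12 to 5 bases before the start. The GC-rich element GGCGCC was in 19.2% of all windows, and BAMBI held 3 copies of it, SKIL 1 and PMEPA1 1. CAGACA was in 16.9% of all windows and in 1 window each of SMURF2 and PMEPA1. The composite of GGCGCC and GTCT on the same strand with 5 bases between them was in 0.103% of all windows and in none of these genes, and none of the 4 searches matched in the ID1, ID2, ID3 or ID4 windows.

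All values below come from the main probes unless said otherwise. In the coordinates of the array design (hg18), these probes lie at chr15:64795864-64860421 for SMAD6, a probe that spans an intron, chr18:44700780-44700839 for SMAD7, chr7:98463114-98463173 for SMURF1, chr17:59974283-59974342 for SMURF2, chr10:29011557-29011616 for BAMBI, chr1:2230742-2230801 for SKI, chr3:171592788-171592847 for SKIL, chr17:46295497-46295556 for TOB1 and chr20:55656895-55656954 for PMEPA1. No member probe was saturated on any array. BAMBI, SKI, SKIL, SMAD7, SMURF2, TOB1 and PMEPA1 were well above background in both channels of all 30 arrays and SMURF1 on 29, while SMAD6 was so on 26. In MDA-MB-231 the vehicle signal of SMAD6 passed on 3 of 6 arrays, and on 1 of these, at 1 h, its BMP7 signal did not.

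Across the series, 6 arrays were scanned in a separate session, and 3 of the 5 arrays at 30 min are among them. The 6 h array of ZR-75-30, also of that session, stood apart with 4044 probes changed at least 2-fold against 232 to 2092 on the other 29 arrays. The 6 h array of MDA-MB-231, of the same session, had 6.32% of its spots marked as outliers, against 0.244% to 1.21% on the others. Among marker genes, KRT8 and KRT18 were well above background on every array, and so was the basal keratin KRT14. The basal keratin KRT5 passed on all 6 arrays of HCC1954 and on at most 1 array of each other line. CDH1 was low in MDA-MB-231. VIM was high there (median signal 109978) and also in HCC1954 (23654). ESR1 was above background on 1 of 6 arrays of MDA-MB-231 and on all 6 of every other line. PGR passed on all 6 arrays in T-47D, on 5 in MDA-MB-361 and on 0 elsewhere. The leukocyte gene PTPRC passed on at most 1 array of a line, although CD3E passed on all 6 arrays of each line.

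SMAD6 was the member with the largest late difference among the main probes. Its mean ratio of BMP7 to vehicle over the lines was near 1 at 30 min and at 1 h, with single log2 values from -0.49 to 0.58 and from -0.24 to 0.43. The ratio was above 1 in all 5 lines at 3, 12 and 24 h. MDA-MB-361 showed the largest ratios. There the log2 BMP7/vehicle of SMAD6, in order of treatment time, was 0.58, 0.43, 1.44, 1.13, 1.32 and 0.95. The values at 3 to 24 h in this line lay above every SMAD6 value of the other 4 lines. In ZR-75-30 the log2 ratios were -0.49, -0.05, 0.69, 0.24, 0.31 and 0.44 in the same order. In T-47D they were -0.16, 0.07, 0.36, 0.40, 0.77 and 0.15. Both of these lines were below 0 at 30 min and above 0 from 3 h on. In HCC1954 the log2 ratios of SMAD6 were -0.30, -0.06, 0.20, 0.28, 0.34 and 0.29. In MDA-MB-231 it was 0.10, -0.24, 0.08, -0.19, 0.72 and 0.50. In this last line, where the vehicle signal is close to background, only the arrays at 12 and 24 h stood clearly above 0. At 12 h its vehicle spot was not well above background.

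**Figure D1:**
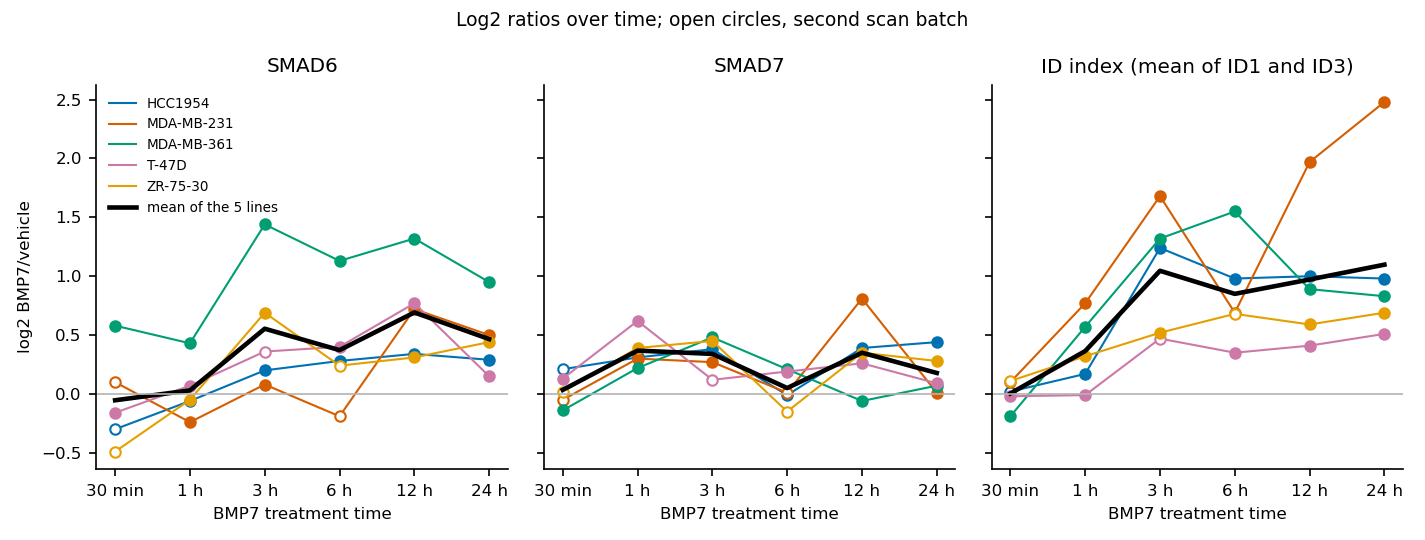
Log2 BMP7/vehicle (y axis) of SMAD6, SMAD7 and the ID index against treatment time (x axis, evenly spaced), 1 coloured line per cell line and a black line for the mean of the 5. Open circles are arrays of the second scan session. The mean of SMAD6 goes from 0.03 at 1 h to 0.55 at 3 h. The SMAD7 mean is already 0.37 at 1 h. It falls to 0.05 at 6 h, then stands at 0.35 for the 12 h arrays.

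Averaged over 3, 6, 12 and 24 h and set against 30 min, SMAD6 was higher by 0.57 on the log2 scale (SE 0.11, 95% confidence interval 0.30 to 0.85, n = 5 lines), a 1.49-fold difference, with all 5 lines in that direction. By line, MDA-MB-231 gave 0.18, HCC1954 and T-47D 0.58 each, MDA-MB-361 0.63 and ZR-75-30 0.91. In these bulk RNAs, a change in the share of responding cells and in the RNA per cell cannot be told apart. With the lines as units and adjustment over all 40999 probes tested (limma, Benjamini-Hochberg), this missed the threshold of 0.05 (unadjusted p = 0.00291, adjusted p = 0.219). In that test 0% of all probes were called and 6346 had an unadjusted p under 0.05. By main probes, the members' share was 0 called and 2 at the unadjusted threshold, SMAD6 and SMAD7. A further probe of SKI (0.295, limma unadjusted p = 0.0114) and one of SMURF2 (-0.29, unadjusted p = 0.0437) were also under the unadjusted threshold. ID1, ID2 and ID3, at 1.05, 1.14 and 0.92, missed the adjusted threshold as well, with adjusted p of 0.236, 0.219 and 0.219. When the 25 arrays were taken as units, which treats time points of a line as repeats, SMAD6 was called (limma, adjusted p = 0.0426) with 0.19% of all probes called upward, and the estimate was the same 0.57.

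At single time points, with all 30 arrays in the fit and cell line as a block, SMAD6 rose at 12 h against 30 min by 0.75 (SE 0.14, 1.68-fold, limma adjusted p = 0.0454), in 5 of 5 lines. It was the 1 member called at any time point, and at 12 h 0.0829% of all probes were called in either direction and 0.0537% upward. For 1, 3, 6 and 24 h the SMAD6 differences were 0.09, 0.60, 0.43 and 0.52, with adjusted p of 1, 0.373, 0.213 and 0.371. In the same order 0%, 0.00244%, 0% and 0.00488% of all probes were called, and ID2 was called at 3 h (adjusted p = 0.0102) and at 24 h (adjusted p = 0.0222). The 12 h call of SMAD6 was lost when any 1 line was left out (0.70 to 0.78, adjusted p 0.0586 to 0.315). It was lost too with the scan session as a term (0.65, adjusted p = 0.35) and within the arrays of the first session (0.74, adjusted p = 0.477), where the size of the difference was about the same. In that session only MDA-MB-361 and T-47D have a 30 min array, so its 30 min values rest on these lines. The difference fell to 0.37 with loess after another background correction and to 0.20 with the same correction and median scaling, neither of them called.

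The mean ratio of SMAD7 was highest at 1 h. It was above its 30 min value in all 5 lines already at 1 h, by 0.34 on the log2 scale (SE 0.12, 1.26-fold), and no later time point had a larger mean difference. This difference was not called (limma, unadjusted p = 0.0132, adjusted p = 1). In T-47D the log2 BMP7/vehicle of SMAD7 was 0.13, 0.62, 0.12, 0.19, 0.26 and 0.09 over the 6 time points. In ZR-75-30 it was 0.02, 0.39, 0.45, -0.15, 0.35 and 0.28. In both lines the value at 6 h was well under that at 1 h, in ZR-75-30 on the array that stands apart from the series. In HCC1954 the log2 ratios of SMAD7 were 0.21, 0.31, 0.38, -0.01, 0.39 and 0.44. In MDA-MB-361 they were -0.14, 0.22, 0.48, 0.21, -0.06 and 0.07. In MDA-MB-231 they were -0.05, 0.30, 0.27, 0.01, 0.81 and 0.01, so that a single array at 12 h held the highest SMAD7 value of the series. All 5 lines were above 0 at 1 h and at 3 h and 3 of 5 at 6 h.

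Against 30 min, SMAD7 differed at 3, 6, 12 and 24 h by 0.31, 0.02, 0.32 and 0.14, with limma adjusted p of 0.444, 1, 0.162 and 0.723. Over 3 to 24 h together the difference was 0.20 (SE 0.06, 1.15-fold, adjusted p = 0.265), with all 5 lines above 0 and a range from 0.04 in T-47D to 0.33 in MDA-MB-231. With the scan session as a term the 1 h difference was 0.23 and not called. In the first session alone it was 0.34, with 30 min arrays of MDA-MB-361 and T-47D only.

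Whether the regulators move with or after the ID genes was asked in 3 ways. First, the time courses were set side by side. The ID index of the 5 lines differed from 30 min by 0.36 ± 0.34 (SD, n = 5) at 1 h and by 0.99 ± 0.51 at 3 to 24 h. SMAD6 averaged 0.09 ± 0.32 and 0.57 ± 0.26 in the same intervals. In 0 of 5 lines was the 1 h difference above the later one, for SMAD6 as for the ID index. SMAD7 averaged 0.34 ± 0.15 at 1 h and 0.20 ± 0.13 later, with the 1 h difference above the later mean in 5 of 5 lines. This was narrow in HCC1954 (0.10 against 0.09), MDA-MB-231 (0.35 against 0.33) and MDA-MB-361 (0.36 against 0.32), and wider in ZR-75-30 (0.37 against 0.21) and T-47D (0.50 against 0.04). The later mean takes in 6 h, where SMAD7 differed from 30 min by 0.02, against 0.31 at 3 h and 0.32 at 12 h. At 6 h the MDA-MB-231 and ZR-75-30 arrays were of the second scan session, and the latter stands apart. Without the 6 h array of ZR-75-30 the later SMAD7 difference was 0.22. The order by line without any 6 h array was not tested. The highest ID index was that of 3 h in 1 line, of 6 h in 1 and of 24 h in 3, and the highest SMAD6 value that of 3 h in 2 lines and of 12 h in 3. The highest SMAD7 values had no common time point.

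At 1 h the difference of SMAD7 from 30 min stood against that of the ID index at -0.02 ± 0.36 (SD, n = 5 lines, exact sign-flip permutation test, two-sided p = 0.938). For SMAD6 this was -0.27 ± 0.63 (exact p = 0.5). SKI and SMURF2 were below the ID index in 5 of 5 lines, at -0.49 ± 0.14 and -0.29 ± 0.17, each with the exact p of 0.0625, the smallest that 5 lines allow, so no member could pass 0.05 here. For BAMBI, with 4 lines, the smallest possible p was 0.125. Over the 9 members these 9 comparisons were one family, and none passed with or without adjustment.

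The 1 h value against the mean of 3 to 24 h described the shape over time. It was -0.49 for SMAD6 (SE 0.11, limma unadjusted p = 0.000241, adjusted p = 0.555), with 0% of all probes called, and 0.14 for SMAD7 (SE 0.10, adjusted p = 0.746). Taken per line, after the values had been seen, the SMAD7 value exceeded that of SMAD6 by 0.63 ± 0.20 in 5 of 5 lines and that of the ID index by 0.77 ± 0.22 in 5 of 5 lines, both with the exact permutation p of 0.0625, the smallest possible. SMAD6 differed from the ID index by 0.14 ± 0.34, with 3 of 5 lines above 0 (exact p = 0.438). The later means here take in the 6 h arrays, on which the mean of SMAD7 was 0.05.

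Second, each gene was regressed on the ID index of the same array within cell lines. SMAD6 had a slope of 0.43 (SE 0.10) per log2 unit of the ID index, BAMBI of 0.22 (SE 0.08) and SMAD7 of 0.13 (SE 0.08). None of the 9 passed the adjustment over all probes (limma, adjusted p = 0.181, 0.36 and 0.597), where 0.00732% of probes were called, and 2 members, SMAD6 and BAMBI, were at an unadjusted p under 0.05 (0.000122 and 0.0142) beside 4393 of all probes. The slopes of the other 6 members lay between -0.03 for TOB1 and 0.08 for SKI. With each line's mean removed, the correlation with the ID index over the arrays was 0.67 for SMAD6, 0.31 for SMAD7 (30 arrays each) and 0.48 for BAMBI (29 arrays). Both values of a point come from the same array and so share its labelling and normalization, and no test was made of these correlations. Within single lines, rank correlations over the 6 time points ran from 0.49 to 0.77 for SMAD6, from 0.26 to 0.70 for BAMBI and from -0.60 to 0.60 for SMAD7.

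**Figure D2:**
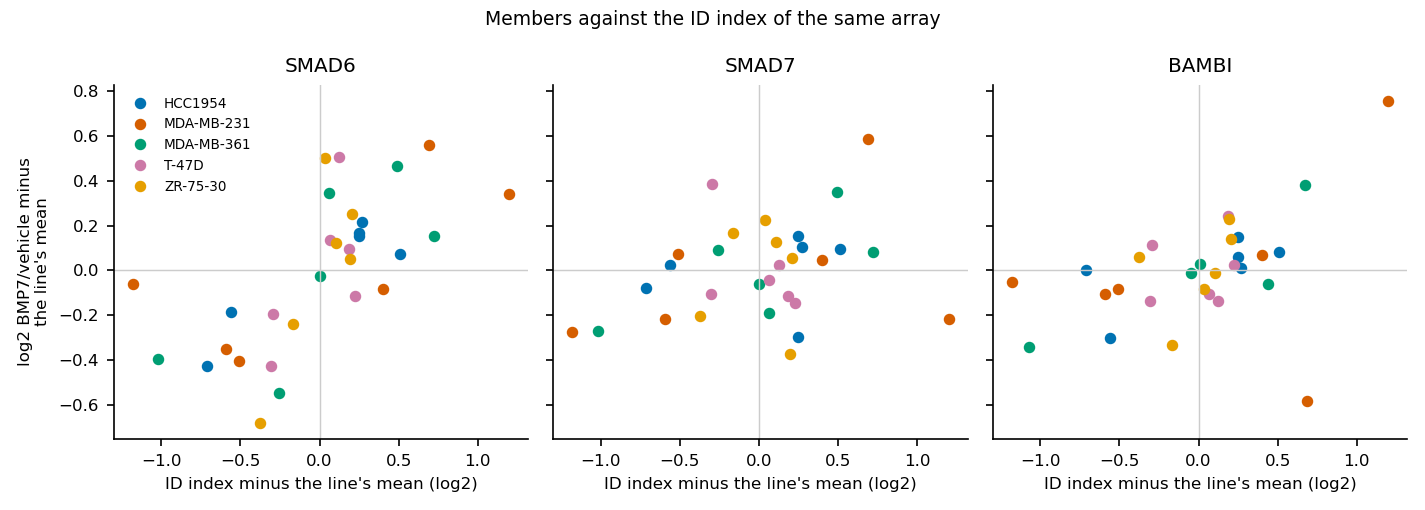
Log2 BMP7/vehicle of SMAD6, SMAD7 and BAMBI (y axis) against the ID index of the same array (x axis), each minus the mean of its cell line, 1 point per array and 1 colour per line. The SMAD6 points run from the lower left to the upper right (r = 0.67 over 30 arrays), and for SMAD7 the spread is wider (r = 0.31).

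In the last of these comparisons, the ID index of the preceding time point took the place of that of the same array. On the 25 arrays with a preceding point the slope of SMAD6 was 0.26 (SE 0.12), that of BAMBI 0.29 (SE 0.11) and that of SMAD7 -0.21 (SE 0.09). All 3 had unadjusted p under 0.05 (0.0411, 0.0183 and 0.0252) and limma adjusted p of 1, and 0% of all probes were called, while 1579 had an unadjusted p under 0.05. On these same 25 arrays the slope on the ID index of the same time was 0.50 for SMAD6, 0.31 for BAMBI and 0.02 for SMAD7, a setting added after the values had been seen. With the time point as a further term, the slope of SMAD6 was 0.12 instead of 0.43 (SE 0.13, adjusted p = 0.836) and that of BAMBI 0.27 (SE 0.13, adjusted p = 0.579), with 0.0122% of all probes called. The 95% confidence interval of that SMAD6 slope was -0.15 to 0.39.

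No call was made for the ubiquitin ligases SMURF1 and SMURF2. The mean SMURF1 differences from 30 min lay between -0.12 at 6 h and 0.10 at 24 h, and its late difference was 0.04 (SE 0.05, adjusted p = 0.731, 3 of 5 lines up), with 0.14 for its other probe, not called either. SMURF1 in T-47D was 0.41, 0.36, 0.51, 0.17, 0.28 and 0.96 on the log2 scale over the 6 time points. In ZR-75-30 SMURF1 lay between 0.17 and 0.27 apart from -0.45 at 6 h, on the array that stands apart. SMURF2 differed by 0.38 at 12 h against 30 min (SE 0.18, 5 of 5 lines up, limma unadjusted p = 0.042, adjusted p = 0.233). The highest SMURF2 value, 1.06 in MDA-MB-231 at 12 h, weighs on this mean, with the other lines between -0.05 and 0.57. It sat on the array that also held the highest SMAD7 value and 0.82 for SMURF1. In the same line at 24 h these 3 genes were at -0.39, 0.01 and -0.13. In T-47D SMURF2 went from 0.09 and -0.12 at the early points to 0.35, 0.38, 0.57 and 0.64, and in ZR-75-30 at 6 h it was -0.66. The 2 probes of SMURF2 disagreed over 3 to 24 h, the main one at 0.14 (3 of 5 lines up) and the dimmer one at -0.29 (0 of 5 lines up), and neither was called. They disagreed at 12 h too, where the dimmer one differed from 30 min by -0.13, with 1 of 5 lines up. Without the ZR-75-30 array at 6 h, no SMURF1 or SMURF2 call changed.

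BAMBI, whose product is the decoy receptor, differed over 3 to 24 h by 0.15 (SE 0.07, 5 of 5 lines up, adjusted p = 0.383). MDA-MB-361 gave 0.43 and the other lines 0.01 to 0.15, and without that line the difference was 0.08. In MDA-MB-231 its log2 BMP7/vehicle was -0.01, -0.04, 0.11, -0.06, -0.54 and 0.80 over the 6 time points. These last values, at 12 and 24 h, were the lowest and the highest of BAMBI in the series. In MDA-MB-361 it was -0.31 at 30 min, had no usable spot at 1 h, and was -0.03, 0.41, 0.06 and 0.02 from 3 to 24 h. In HCC1954, T-47D and ZR-75-30 it lay between -0.38 and 0.34. At 24 h all 5 lines were above 0 and above their 30 min values, with a mean difference of 0.29 (SE 0.15, adjusted p = 0.529).

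The corepressors gave no call. SKI was above 0 in all 5 lines at 3 h, between 0.23 and 0.53, and its difference against 30 min was 0.28 (SE 0.17, limma adjusted p = 0.62). By 24 h the main probe was back at a mean of -0.01 ± 0.24 (SD, n = 5 lines). The other SKI probes did not return. At 24 h they differed from 30 min by 0.36 (4 of 5 lines up, limma unadjusted p = 0.0188, adjusted p = 0.44) and 0.56 (3 of 5 lines up, adjusted p = 0.64). The highest log2 ratios of the main probe were 0.91 and 0.60 in ZR-75-30 at 6 and 12 h and 0.74 in MDA-MB-361 at 12 h, while T-47D at 12 h was at -0.48. The other SKI probes gave late differences of 0.29 and 0.38 against 0.11 for the main one, none called. SKIL stayed between -0.23 and 0.56 on all 30 arrays, with a late difference of 0.00 (SE 0.10), and its highest value was HCC1954 at 30 min.

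TOB1 and PMEPA1 averaged near 0 by their main probes. The late difference of TOB1 was 0.02 (SE 0.06, adjusted p = 0.898), that of its other probe 0.12 (adjusted p = 0.409), and all log2 ratios of the main probe lay between -0.22 and 0.52. That of PMEPA1 was 0.00 (SE 0.08, adjusted p = 1), and that of its other probe 0.04 (adjusted p = 0.597). In HCC1954 the log2 ratios of the main PMEPA1 probe were 0.19, 0.19, 0.20, 0.18, 0.28 and 0.23. In MDA-MB-361 they were -0.44, -0.19, -0.18, -0.07, -0.48 and -0.16. All 6 values of HCC1954 were above 0 and all 6 of MDA-MB-361 below, at 30 min as well as later. The other PMEPA1 probe, well above background on all 30 arrays, had the opposite signs. It was below 0 on all 6 arrays of HCC1954, from -0.41 to -0.15, and above 0 on all 6 of MDA-MB-361, from 0.01 to 0.31. The probes thus disagreed on these lines, and no direction by line is given for the gene. At 12 h the main PMEPA1 probe was below its 30 min value in 4 of 5 lines, by -0.19 on average (SE 0.09, unadjusted p = 0.0412, limma adjusted p = 0.231). The other PMEPA1 probe was above its 30 min value there in 4 of 5 lines, by 0.125 on average (limma adjusted p = 0.411).

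**Figure D3:**
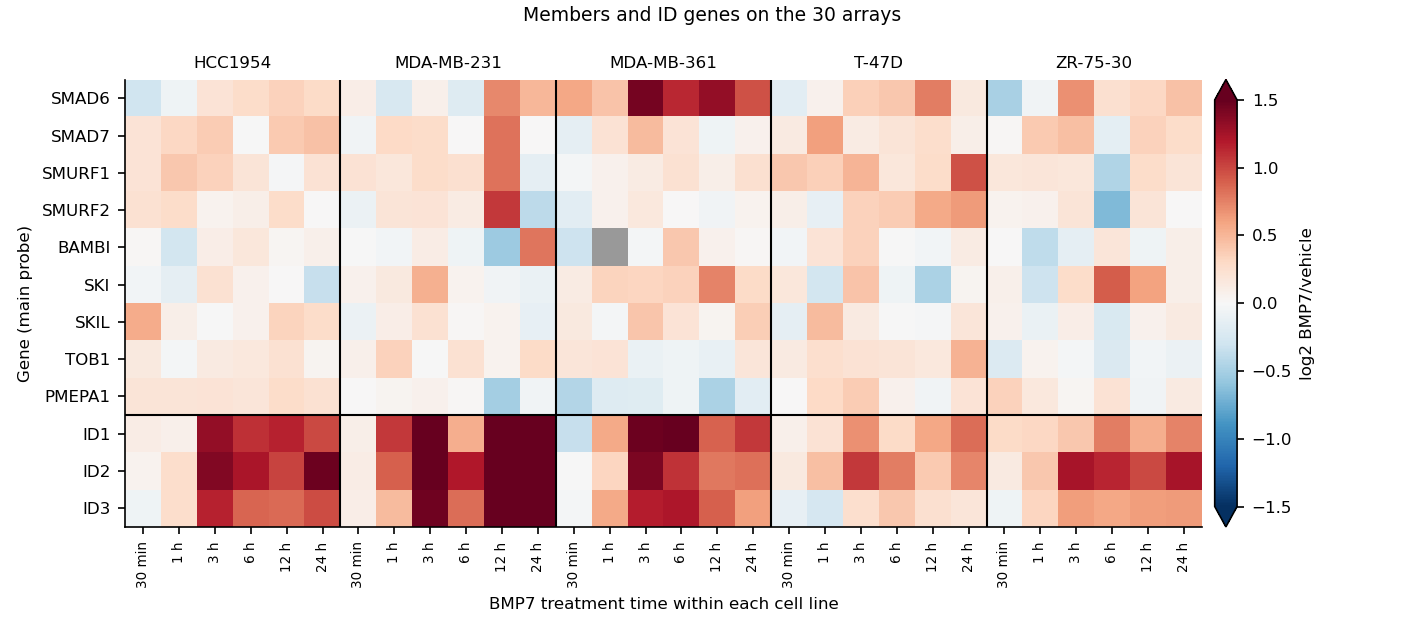
Log2 BMP7/vehicle (colour, red above 0 and blue below, scale ending at 1.5 in each direction) of the main probes of the 9 members and of ID1, ID2 and ID3 (rows) on the 30 arrays (columns, by cell line and time point), with grey for BAMBI in MDA-MB-361 at 1 h, which has no value. SMAD6 in MDA-MB-361 at 3, 6 and 12 h is the deepest red of the members, up to 1.44, and the ID rows are red from 3 h on in every line.

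Of the 269 values of the members' main probes, 4 reached 2-fold on a single array (1.49%), all of them upward, beside 1.87% of all probe values of the series. These were SMAD6 in MDA-MB-361 at 3, 6 and 12 h and SMURF2 in MDA-MB-231 at 12 h. Over all 15 member probes, 11 of 449 values did (2.45%), 7 upward and 4 downward, the others being on further probes of SKI and SMURF2. ID1, ID2 and ID3 reached 2-fold upward on 10, 14 and 6 of 30 arrays, and ID4, well above background on 24 arrays, did so upward on 2 and downward on 1. The late difference of ID4 was 0.37 (3 of 5 lines up, adjusted p = 0.561). By the median over genes, the late difference was 0.11 for the 9 members, 0.99 for the 4 ID genes and 0 for all probes tested, and at 12 h the members' median was 0.08.

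**Figure D4:**
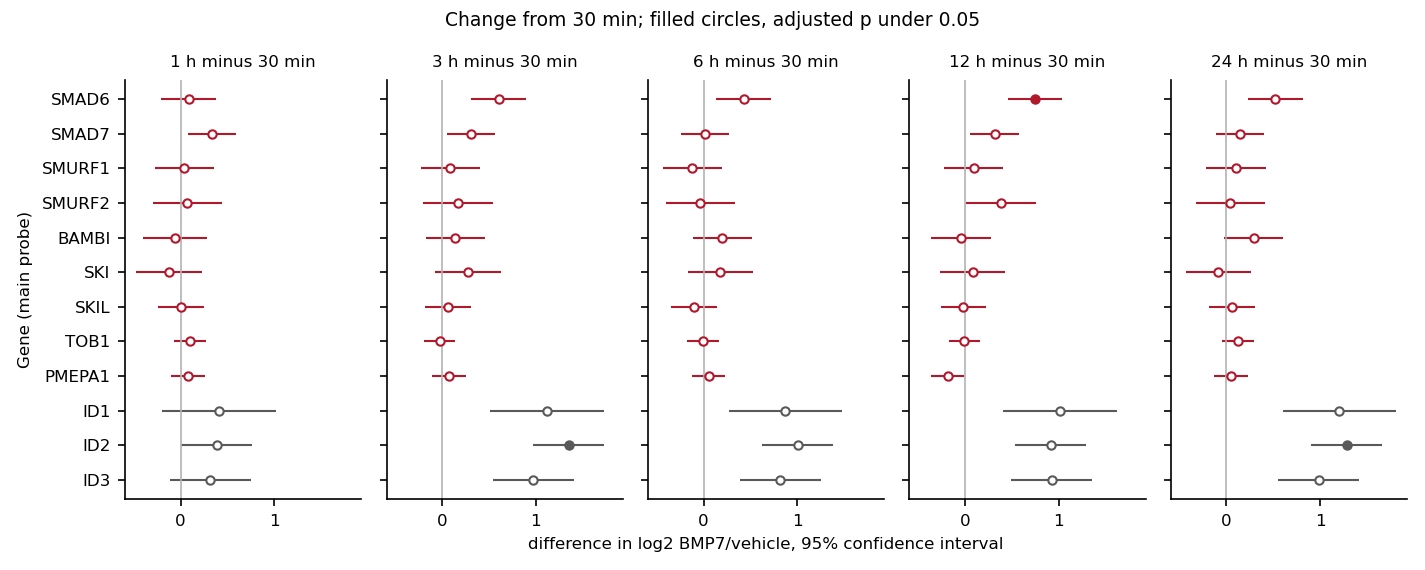
Difference in log2 BMP7/vehicle between each time point and 30 min (x axis, points with 95% confidence intervals from the limma fit) for the members in red and ID1, ID2 and ID3 in grey (rows), 1 panel per time point. The filled circles are SMAD6 at 12 h (0.75) and ID2 at 3 and 24 h, those with an adjusted p under 0.05.

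The later log2 ratios of the main probes of 2 of the 9 members differed between the cell lines, beside 5.37% of all probes called in the same test (limma F test on the 20 arrays at 3 to 24 h, with the time point as a block). In that test 9855 of 40989 probes had an unadjusted p under 0.05, and so had 3 members. For SMAD6 the mean log2 BMP7/vehicle over 3 to 24 h was 1.21 ± 0.22 (SD over 4 time points) in MDA-MB-361, 0.42 ± 0.26 in T-47D, 0.42 ± 0.20 in ZR-75-30, 0.28 ± 0.06 in HCC1954 and 0.28 ± 0.41 in MDA-MB-231 (F = 11.3, adjusted p = 0.0215). Without MDA-MB-361 the other 4 lines gave F = 0.456 and an adjusted p of 0.864, so the difference rests on that line. Part of it was already there at 30 min, where MDA-MB-361 stood at 0.58 and the other lines between -0.49 and 0.10, and its own rise over 30 min, 0.63, lay inside the range of the other lines. Without HCC1954 the adjusted p was 0.0923.

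The main probe of PMEPA1 was the other one called (F = 7.55, adjusted p = 0.0464), with late means of 0.22 ± 0.04 in HCC1954, 0.15 ± 0.19 in T-47D, 0.09 ± 0.12 in ZR-75-30, -0.12 ± 0.26 in MDA-MB-231 and -0.22 ± 0.18 in MDA-MB-361. The dimmer PMEPA1 probe, with the opposite signs in HCC1954 and MDA-MB-361, was not called (adjusted p = 0.165), and the call was lost without any 1 of HCC1954, MDA-MB-361, T-47D or ZR-75-30 (adjusted p 0.0726 to 0.255). For TOB1, whose late means ran from 0.27 in T-47D to -0.10 in ZR-75-30, the adjusted p was 0.0706. The main TOB1 probe was called with loess after the normexp background correction (limma adjusted p = 0.00481) and with the slide as a random block (0.0431), settings in which all 3 were called. It was also called with normexp and median scaling in place of loess (0.0428), where PMEPA1 was not (0.107). The other TOB1 probe was below 0 in T-47D on every late array (-0.36 to -0.04) and was not called (adjusted p = 0.436). SMAD7, with late means from 0.16 to 0.30, had an adjusted p of 0.952. A dye difference of a probe that varied between lines cannot be told apart from these differences, since no array had its dyes swapped.

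In vehicle-treated cells all 9 members differed between the lines, beside 75.9% of all probes called (limma F test, 30 arrays). Levels are the log2 vehicle signal minus the 75th percentile of the array, compared between lines within a probe and never between genes. Each mean rests on the 6 arrays of a line (5 for BAMBI in MDA-MB-361), and the SD is that over time points. The serum concentrations of MDA-MB-231 and T-47D were not the recommended ones, so line and culture condition cannot be told apart in these levels. TOB1 showed the widest range, with 4.35 ± 0.40 in MDA-MB-361, 4.19 ± 0.25 in ZR-75-30, 2.72 ± 0.57 in T-47D, 1.12 ± 0.36 in HCC1954 and -0.63 ± 0.56 in MDA-MB-231, a 31.6-fold span (adjusted p = 1.26e-15). The upper pair did not differ (0.16, 95% confidence interval -0.30 to 0.63), and each of the next steps did. In raw units its median vehicle signal was 21046 in MDA-MB-361 and 613 in MDA-MB-231.

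BAMBI had the same upper pair of lines and the same lowest line as TOB1. It was at 6.76 ± 0.32 in ZR-75-30 and 6.75 ± 0.09 in MDA-MB-361 (5 arrays), 5.05 ± 0.33 in T-47D, 3.98 ± 0.19 in HCC1954 and 2.53 ± 0.60 in MDA-MB-231, an 18.8-fold span. The upper pair differed by 0.01 (95% confidence interval -0.40 to 0.43) and the steps below it were all called. SMAD6 was at -2.20 ± 0.13 in ZR-75-30, -2.36 ± 0.18 in HCC1954 and -2.62 ± 0.38 in MDA-MB-361, neighbours that did not differ beyond their spread, then -3.31 ± 0.26 in T-47D and -5.28 ± 0.66 in MDA-MB-231. The SMAD6 span of 8.44-fold includes MDA-MB-231 arrays of which 3 of 6 were not well above background. MDA-MB-361, with the highest SMAD6 ratios under BMP7, had the middle SMAD6 vehicle level of the 5 lines.

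By their main probes, the ubiquitin ligases and SKI were instead highest in MDA-MB-231. SMURF2 was at 1.00 ± 0.31 in MDA-MB-231, 0.17 ± 0.46 in HCC1954, -0.40 ± 0.19 in MDA-MB-361, -1.47 ± 0.29 in ZR-75-30 and -2.71 ± 0.30 in T-47D, and all 4 steps between neighbours were called (13.1-fold span). SMURF1 was at 0.02 ± 0.69, -0.32 ± 0.42 and -0.62 ± 0.56 in MDA-MB-231, HCC1954 and ZR-75-30, with no step between these neighbours called. It was at -2.59 ± 0.09 in MDA-MB-361 and -3.33 ± 0.47 in T-47D (10.2-fold span). The dimmer probes of both ligases gave other orders. Over single arrays, that of SMURF1 ran from -1.9 to -1.6 in HCC1954 and from -2.8 to -1.9 in MDA-MB-231. It was lowest in MDA-MB-361 (-5.6 to -4.4). That of SMURF2 was lower in HCC1954 (-3.5 to -2.6) than in MDA-MB-361 (-0.9 to -0.4), the reverse of the main probe. SKI ran from 0.41 ± 0.54 in MDA-MB-231 to -1.23 ± 0.11 in MDA-MB-361, a 3.12-fold span, with HCC1954 between them at -0.14 ± 0.31. ZR-75-30 (-0.92 ± 0.28), T-47D (-1.14 ± 0.19) and MDA-MB-361 formed the lower end, with no step among them called.

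SKIL was highest in ZR-75-30 (-0.16 ± 0.30) and HCC1954 (-0.33 ± 0.52) and lowest in MDA-MB-231 (-1.97 ± 0.36) and MDA-MB-361 (-2.53 ± 0.24), a 5.17-fold span with T-47D between them at -1.04 ± 0.58. T-47D differed from both of its neighbours in this order, while the steps within the upper pair and within the lower pair were not called. PMEPA1 was at 5.23 ± 0.48 in HCC1954 and 4.36 ± 0.25 in ZR-75-30, against 2.51 ± 0.42, 2.47 ± 0.19 and 2.11 ± 0.54 in MDA-MB-231, MDA-MB-361 and T-47D, among which no step was called (8.66-fold span). SMAD7 varied least. It was at -1.32 ± 0.47 in MDA-MB-231, -1.78 ± 0.22 in T-47D, -1.99 ± 0.30 in ZR-75-30, -2.24 ± 0.11 in MDA-MB-361 and -2.27 ± 0.56 in HCC1954. No step between neighbours was called for SMAD7, and its ends differed 1.93-fold (adjusted p = 0.00161).

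**Figure D5:**
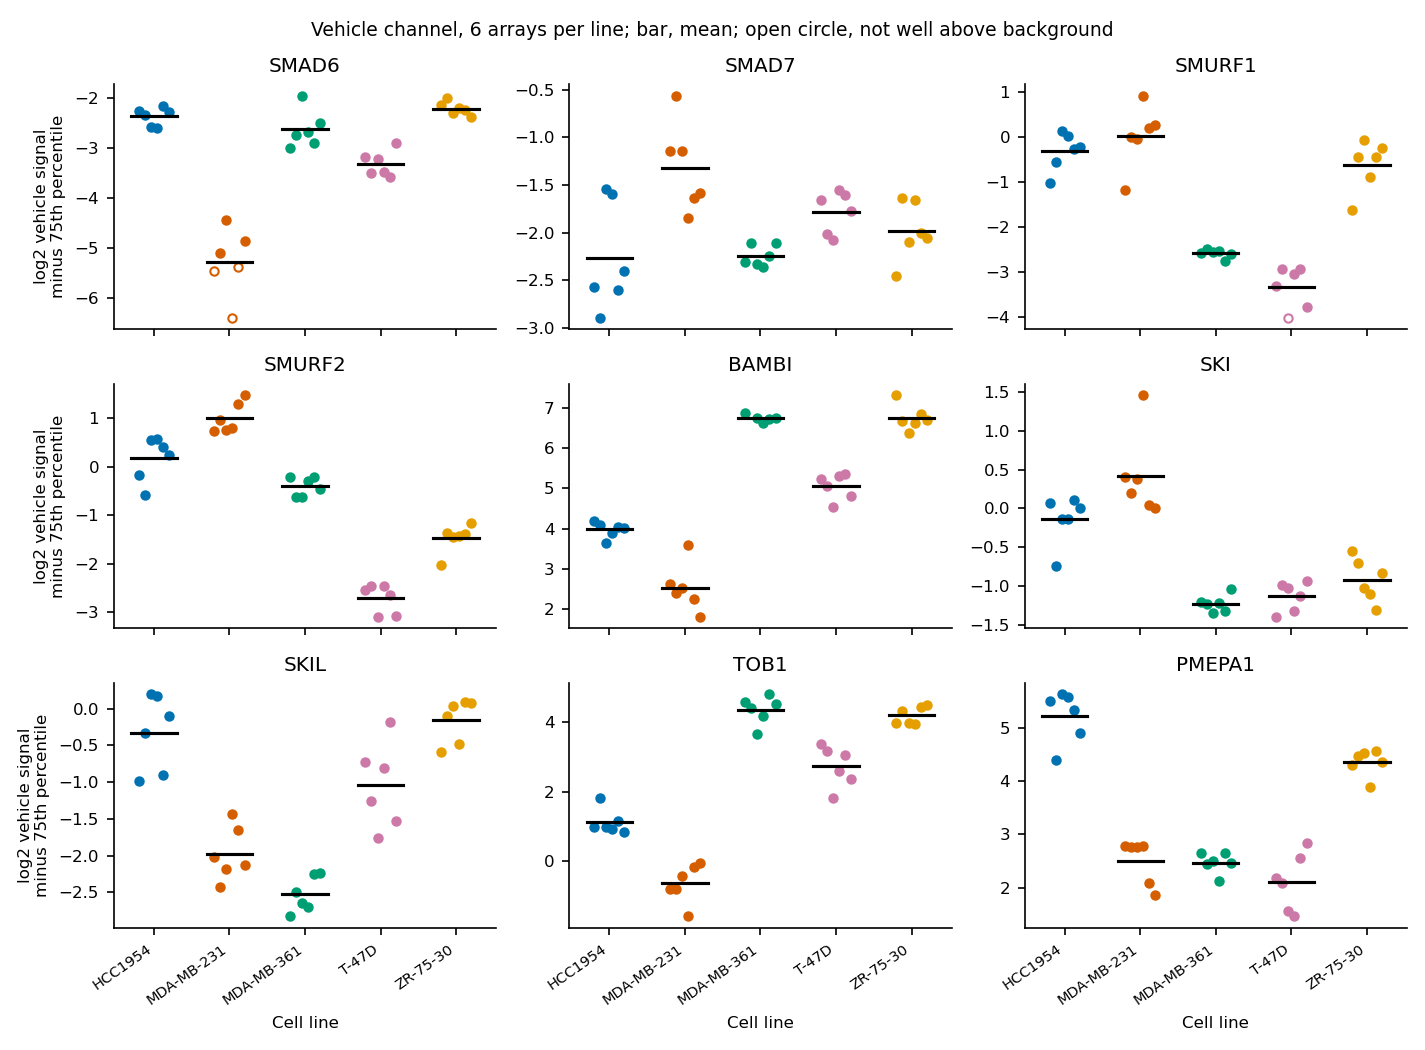
Log2 vehicle signal minus the array's 75th percentile (y axis, a separate scale in each panel) of the main probe of each member in the 5 cell lines (x axis), 1 point per array (6 per line, 5 for BAMBI in MDA-MB-361) with a bar at the mean and open circles where the spot was not well above background. TOB1 and BAMBI are lowest and SMURF2 highest in MDA-MB-231, and SMAD7 spans the smallest range (1.93-fold between its ends).

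Other proteins of the pathway gave no call in the late difference. Of 13 further intracellular inhibitors of SMAD signalling, all with a probe tested, 0 rose and 0 fell (4 had an unadjusted p under 0.05, median difference -0.08). Of 13 receptors and transducing SMADs, all with a probe tested, 0 rose and 0 fell (8 with an unadjusted p under 0.05, median -0.14). Not all were above background, ACVRL1 on 0 and BMPR1B on 12 of 30 arrays. Both counts stand beside the 6346 of 40999 probes with an unadjusted p under 0.05 in this test. As 0% of all probes were called in it, the ID genes included, the lack of calls says nothing particular about these lists.

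The log2 ratios of other genes most like those of SMAD6, by Pearson correlation over the 30 arrays with each line's mean removed and among 11014 genes well above background on at least 24 arrays, were those of COQ4 (0.805), FAF1 (0.80), GATA2 (0.797), FGFR3 (0.78) and DDRGK1 (0.759). ID3 was 18th in this order with 0.72, ID2 51st with 0.679 and ID1 241st with 0.606. For SMAD7 they were KLF3 (0.755), STXBP5 (0.725), RSL1D1 (0.719), TRAPPC1 (0.693) and CKAP5 (0.69), and SMAD6 itself was 1864th with 0.342. All values of a point come from the same array, and these correlations are given as a description.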

How the data were processed

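Log2 ratios of BMP7 over vehicle and vehicle levels of 9 genes were taken from 30 Agilent 2-colour arrays (5 cell lines, 6 time points, 13 slides, 2 scan sessions). Per the file headers, Feature Extraction 9.5.1.1 made the deposited log10 ratios and processed intensity values, subtracting background and normalizing dyes linearly and by lowess, which sets aside shifts shared by most probes. The authors' deposited log2 ratios of the same arrays were used as an alternative. How the probes' hg18 positions fall on exons was not analysed here.

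The log10 values were turned to log2, without control spots and spots marked as outliers. Replicate spots were averaged per probe, and each array's median was set to 0. Vehicle levels were the log2 Cy3 intensity minus the array's 75th percentile. Tests were run in limma 3.58.1 (R 4.3.3, with the data.table package in version 1.17.8) over all probes, two-sided and adjusted by Benjamini-Hochberg with 0.05 as the limit: the late difference (mean of 3 to 24 h minus 30 min, 5 lines as units), each time point against 30 min, the slope on the ID index, and F tests between lines. Cell line or time point was the block, and arrays of different time points were paired by the cell line in the labels. Single values were tested with exact sign-flip permutation tests over lines. No genes were picked by their values: the 9 members and 4 ID genes are named, values being those of the main probe, that with the brightest median vehicle signal, other lists are given as counts unless past the threshold, and for SMAD6 and SMAD7 the 5 most correlated genes are named. The members and lists were chosen with earlier results of these data known. The scripts were tested on simulated data of 37950 probes. Of 100 probes each, changed by 1 or by 2 on the log2 scale, the late difference recovered 66% and 94%, and 12 h against 30 min 80% and 100%. The number of arrays limits the precision. With 1 pooled sample per line and time point, p-values measure the spread between lines and time points.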

Additional observations from a re-analysis of the deposited data

Results flagged for a closer look

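The values below stood out within their group of 5 lines or 6 time points by the gap to the next value, a test (Dixon's, at the 95% level) that chance alone passes in about 1 group in 20. It was passed by 6 of 54 groups of log2 ratios and by 4 of 45 groups of vehicle levels. For the ratios, SMURF1 at 6 h was low in ZR-75-30 (-0.45, next value 0.17), on the array that stands apart from the series. BAMBI was low in MDA-MB-361 at 30 min (-0.31), low in MDA-MB-231 at 12 h (-0.54) and high in the same line at 24 h (0.80, next value 0.12). SKIL at 12 h was high in HCC1954 (0.33), and TOB1 at 30 min was low in ZR-75-30 (-0.21). For the vehicle levels, SMURF2 in ZR-75-30 was low at 30 min (-2.03), SKI was low in HCC1954 at 1 h (-0.75) and high in MDA-MB-231 at 6 h (1.46), and TOB1 was high in HCC1954 at 1 h (1.81). The MDA-MB-231 array at 6 h is the one with the largest share of outlier-marked spots.

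The late log2 ratios of SMAD6 (F = 11.3, limma adjusted p = 0.0215) and of the main PMEPA1 probe (F = 7.55, adjusted p = 0.0464) differed between cell lines. The other PMEPA1 probe had the opposite signs in HCC1954 and MDA-MB-361 and was not called (adjusted p = 0.165). Their values by line are given above, and the part of the scan session and of the vehicle level in these differences was not tested beyond the fits with the session as a term (F = 11.1 and 9.05).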

How the results depend on the processing

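No called difference changed direction under any alternative run, and in the vehicle test all 9 members stayed called under its 5 alternatives. The late difference gave 0 member calls in every setting except with 25 arrays as units and with the slide as a random block on those arrays, each 1 (SMAD6). The SMAD6 value stayed above 0 in all 18 alternatives (0.21 to 0.68), as did that of SMAD7 (0.03 to 0.24, lowest with 1 h counted among the early points). Against 30 min, the main count was 1 member call. It was 0 with normexp and loess, 0 with normexp and median scaling, 0 without the cell line block (no replicate block), 0 with the scan batch as a term, 0 in the first scan batch alone, and 0 to 0 when each line was left out in turn. The response between lines, 2 members in the main setting, gave 1 with the series matrix values, 1 without the ZR-75-30 array at 6 h, 1 in the first scan batch alone, and 0 to 2 with each line left out. With normexp and loess, and with the slide as a random block, TOB1 was called in addition to SMAD6 and PMEPA1. With normexp and median scaling TOB1 was called and PMEPA1 was not. The slope test gave 0 throughout, and 0 without the block.

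Over all probes the counts moved more: 34 at 12 h against 0 without MDA-MB-231 and 1511 with both channels above background, 2201 between lines against 164 without HCC1954 and 13205 with normexp and median scaling, and 0 for the late difference against 234 with 25 arrays as units. The causes were not tested. The block is the pairing of time points by cell line. Signal near background limits what can be said of SMAD6 in MDA-MB-231.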
